A study of Mus musculus with 9 samples.

Results

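The genes described here are the mouse Fc receptor gene Fcgr2b and 6 genes related to it by function: Fcgr3, Fcgr4 and Fcgr1, the adaptor genes Fcer1g and Tyrobp, and Fcgrt. These 7 genes, of 55471 gene identifiers counted, were picked by name with the difference between the study's groups already known, Fcgr2b because of its large difference. Their differences between the groups are therefore given as descriptions, without a test. RNA was sequenced from CD8+ T cells carrying the OT-I transgene, whose T cell receptor recognises an ovalbumin peptide. The control group (n = 4) carried wild-type Bdh1 and a short hairpin RNA against firefly luciferase (shCtrl). The group called DKO (n = 5) was labelled Bdh1-KO and carried a hairpin against Oxct1 (shOxct1). Bdh1 and Oxct1 encode enzymes of ketone body use, and the series addresses how this use, called ketolysis, bears on the function of CD8+ T cells. Naive cells of both groups were activated for 24 h with antibodies to CD3ε and CD28 and 50 U/mL of IL-2, transduced with the hairpin vector and sorted on its fluorescent reporter Ametrine. They were then transferred into C57BL/6 mice of the CD45.1 type, and the labels name no depletion of host cells. The hosts were infected with LmOVA, Listeria monocytogenes engineered to make ovalbumin, and the transferred cells were sorted from the spleen as CD45.2+ and Ametrine+ on day 7. The labels give neither the animals' age, nor the cells in which Bdh1 was deleted, nor whether replicates came from different donors, so p-values measure only the spread between these libraries.

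Receptors for the Fc part of immunoglobulin G link antibody to cellular responses, and their best known carriers are macrophages, neutrophils, natural killer cells, mast cells and B cells. Fcgr2b encodes FcγRIIB, the inhibitory member, whose cytoplasmic tail holds an ITIM motif that recruits the lipid phosphatase SHIP1. The activating receptors encoded by Fcgr1, Fcgr3 and Fcgr4 have no long signalling tail and pair with the γ chain encoded by Fcer1g, whose ITAM motif recruits the kinase SYK. Tyrobp encodes DAP12, another ITAM adaptor, which pairs with receptors of natural killer and myeloid cells. Fcgrt encodes the heavy chain of FcRn, which salvages immunoglobulin G and albumin from degradation inside cells. Most T cells carry little Fc receptor, and FcγRIIB has been described on effector and memory CD8+ T cells.

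Fcgr2b and Fcgr3 are related in sequence and lie close together on chromosome 1, so the stretch that a short read cannot assign to either gene is shown first. In GENCODE M21 (GRCm38, mm10), Fcgr2b lies on the minus strand at chr1:170958617-170976547 and Fcgr3 on the minus strand at chr1:171051174-171064935. Their coding transcripts share a run of 129 identical bases. It lies in exons 5 and 6 of Fcgr2b transcript ENSMUST00000159969.7 (chr1:170966674-170968081, across an intron) and in exons 3 and 4 of Fcgr3 transcript ENSMUST00000169017.7 (chr1:171054167-171057792, across an intron), in the part that encodes the extracellular domains. With 40 bases on either side, the 209 bases differ at 5 positions, which are in capitals.
Fcgr2b: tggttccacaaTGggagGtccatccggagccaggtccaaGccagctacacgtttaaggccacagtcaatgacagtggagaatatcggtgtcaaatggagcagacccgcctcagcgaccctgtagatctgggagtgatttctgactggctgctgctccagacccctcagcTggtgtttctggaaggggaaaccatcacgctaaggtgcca
Fcgr3: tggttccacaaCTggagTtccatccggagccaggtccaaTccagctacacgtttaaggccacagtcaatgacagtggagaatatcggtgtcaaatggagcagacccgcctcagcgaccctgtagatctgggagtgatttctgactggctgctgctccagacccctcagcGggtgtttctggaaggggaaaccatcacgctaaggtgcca
Most of each gene can be told from the rest of the transcriptome: 6.72% of the 50-base words of Fcgr2b and 10.2% of those of Fcgr3 occur in another gene. Of the 100-base words of Fcgr2b, 2.12% do so. The other 5 members share no 50-base word with another gene.

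The targeted genes were measured first, as a check of the labels. Oxct1 stood at 74.0 CPM (counts scaled to the library's total in genes) in control 1 and at 58.5 to 61.9 CPM in the other controls, against 4.60 to 5.53 CPM in DKO. It fell by 3.61 on the log2 scale (SE 0.10, adjusted p = 4.58e-09 by the quasi-likelihood test of edgeR, adjusted by Benjamini-Hochberg). Bdh1 averaged 30.6 ± 3.71 CPM over the controls (SD, n = 4) and 10.6 ± 1.21 CPM over DKO (SD, n = 5), without overlap, and fell by 1.52 (SE 0.13, edgeR adjusted p = 1.36e-04). The DKO libraries held some transcript of both, and which cells it came from was not tested. Each library held 45205993 to 59853080 counts in genes. Control 1 stood apart on the leading principal component and control 3 on the next. T cell identity was plain from Cd3e, at 1101 to 1285 CPM in control and 1025 to 1091 CPM in DKO.

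Fcgr2b was the member with the widest gap between the groups. In the controls it was at 48.5, 51.7, 36.1 and 46.2 CPM (replicates 1 to 4), from 2274, 2966, 1633 and 2655 counts. In DKO it was at 12.0, 12.8, 11.6, 14.2 and 15.1 CPM (replicates 1 to 5), from 607, 769, 552, 726 and 720 counts. All 5 DKO libraries lay below all 4 controls. The means were 45.6 ± 6.73 CPM (SD, n = 4) and 13.1 ± 1.49 CPM (SD, n = 5), so that DKO was at 28.8% of control, a log2 difference of -1.78 (SE 0.12). Without control replicates 1 and 3 the log2 difference was -1.92. In bulk RNA, fewer cells that carry the transcript and less transcript per cell cannot be told apart.

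Of the 7 members, 5 passed the filter on low counts, and Fcgr4 and Fcgr1 did not. Fcgr2b was the only one of those 5 past the threshold of 0.05 in edgeR, where it was lower in DKO. Over all 14918 genes tested, 2.83% passed the threshold in either direction and 1.51% were lower in DKO. Fcgr2b was also the only one of the 5 whose groups did not overlap with DKO lower, which held for 4.36% of all genes tested. Because the members were picked on this contrast, nothing is read from these counts. Among the 225 genes that were lower in DKO, Fcgr2b was number 15 by size of the difference. All 5 tested members had a log2 difference below 0, as had 51.4% of all genes tested, and nothing is read from this count either. That of Fcer1g rose above 0 in some alternatives, and that of Fcgr3 did so without control replicates 1 and 3. The median of the 5 members was -0.42, beside -0.0091 over all genes tested.

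**Figure D1:**
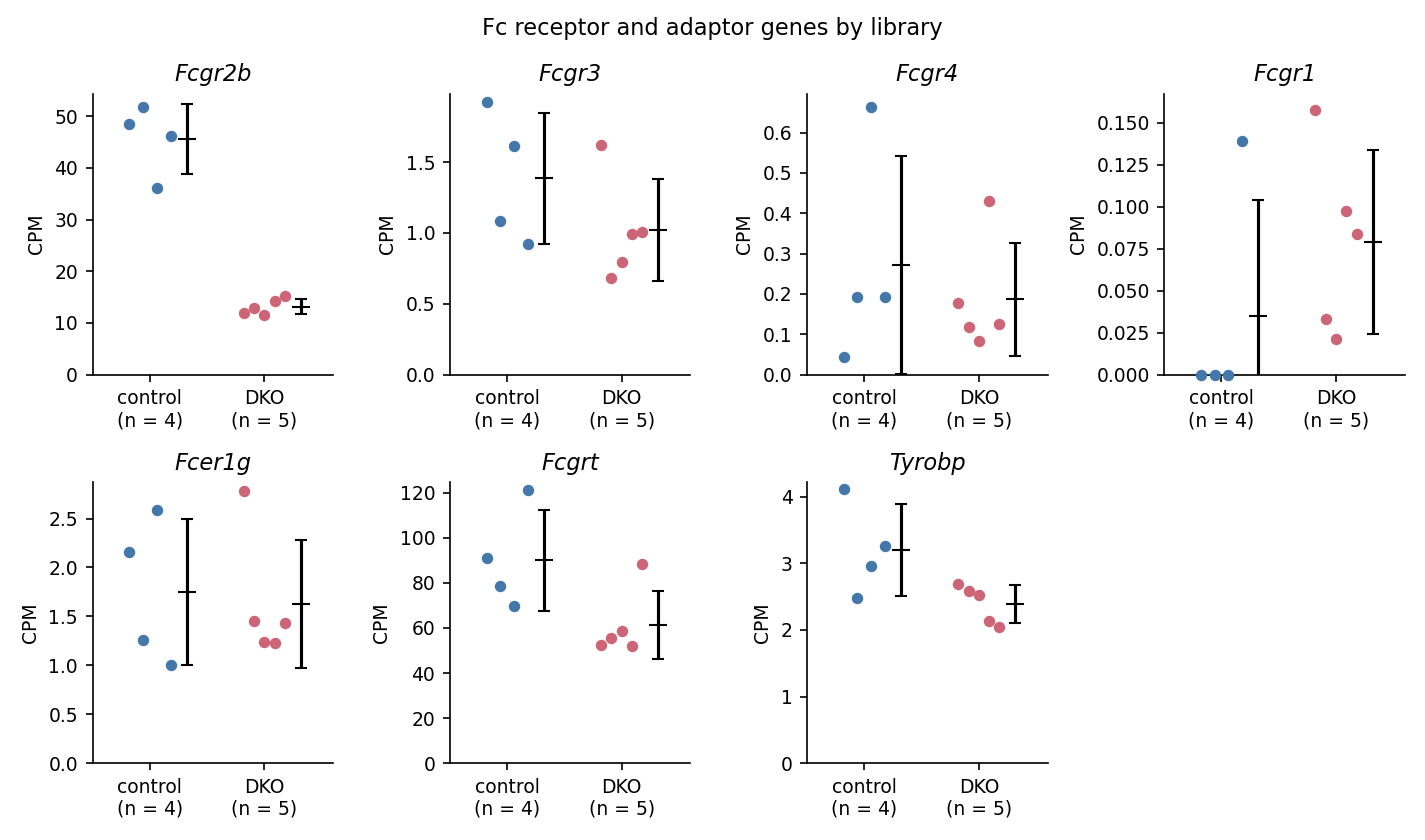
Level of each of the 7 Fc receptor genes in every library, in CPM on a linear axis from 0 with its own scale per gene; points are libraries, and the bar beside each group is the mean ± SD, cut off at 0 (control n = 4, DKO n = 5). Fcgr2b lies between 36.1 and 51.7 CPM in control and between 11.6 and 15.1 CPM in DKO, and the groups overlap for the other 6 genes.

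The activating receptors were rare. Fcgr3, which encodes the low-affinity activating receptor FcγRIII, was at 1.92, 1.08, 1.61 and 0.921 CPM in the controls and at 1.62, 0.685, 0.798, 0.996 and 1.01 CPM in DKO. The groups overlapped, with control 1 highest and DKO 2 lowest, and the log2 difference was -0.42 (SE 0.31). It was -0.25 without control 1, -0.65 without DKO 1 and -0.16 with limma-voom. Without control replicates 1 and 3 it was 0.0071, so the direction of the Fcgr3 difference rested on those libraries.

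Fcgr4, on the plus strand at chr1:171018920-171029761, encodes the activating receptor FcγRIV of myeloid cells. It gave 54 counts over the 4 controls and 48 over the 5 DKO libraries, at 0.0427 to 0.664 CPM in control and 0.0840 to 0.430 CPM in DKO. Control 3 and DKO 4 were the highest of their groups. Fcgr1 (chromosome 3, 96282909 to 96293969, minus strand), which encodes the high-affinity receptor FcγRI of macrophages and monocytes, gave no count in 3 controls and 8 in control 4. It gave 8, 2, 1, 5 and 4 counts in DKO. The limit that a count of 0 allows, 3 counts, comes to 0.0501 to 0.0664 CPM over the libraries and covers counting error only, since PCR copies are not independent molecules. No fold is given for Fcgr4 or Fcgr1 at these depths.

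The signalling adaptors were also low. Fcer1g (chr1:171229572-171234365, minus strand), the γ chain shared by the activating receptors, was at 2.16, 1.26, 2.59 and 1.01 CPM in the controls and 2.78, 1.45, 1.24, 1.23 and 1.43 CPM in DKO. DKO 1 lay above every control and the other DKO libraries lay among them, giving a log2 difference of -0.084 (SE 0.34). This direction did not hold: it was 0.50 without control replicates 1 and 3, 0.0051 without control 1, 0.17 without control 3, 0.0015 without DKO 4 and 0.27 with limma-voom.

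Tyrobp (chr7:30413760-30417585, plus strand), the DAP12 adaptor, was at 4.12, 2.48, 2.96 and 3.27 CPM in the controls. In DKO it was at 2.68, 2.59, 2.52, 2.13 and 2.04 CPM. Only control 2 fell within the range of DKO, and the log2 difference was -0.41 (SE 0.18). Without control replicates 1 and 3 it was -0.28, and with limma-voom -0.19.

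Fcgrt (chr7:45092990-45103851, minus strand), the FcRn heavy chain, was the most abundant member in counts and per length. It was at 91.0, 78.5, 69.9 and 121.1 CPM in the controls and at 52.2, 55.6, 58.7, 51.8 and 88.2 CPM in DKO. DKO 5 alone reached into the control range, and the other 4 DKO libraries lay below all controls. The log2 difference was -0.54 (SE 0.19). It was -0.36 without control 4, the highest control, and -0.72 without control replicates 1 and 3.

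Divided by the length of each gene's merged exons, the levels put the members in an order. In control, Fcgrt was at 42.9 CPM per kb, followed by Fcgr2b at 7.88, Tyrobp at 4.81, Fcer1g at 2.00, Fcgr3 at 0.797, Fcgr4 at 0.217 and Fcgr1 at 0.0134 CPM per kb. Neighbours in this order did not overlap across the 4 controls, other than Fcgr4 and Fcgr1. In DKO, Fcgrt was at 29.2 CPM per kb and Tyrobp, at 3.59, stood above Fcgr2b, at 2.27 CPM per kb. Fcer1g followed at 1.86, Fcgr3 at 0.588, Fcgr4 at 0.149 and Fcgr1 at 0.0304 CPM per kb. The ranges of Fcgr2b and Fcer1g overlapped in DKO, where Fcgr2b was above Fcer1g in 4 of 5 libraries. The merged exons of Fcgr2b come to 5790 bases and its longest coding transcript to 3544 bases. A shorter length would raise its level, so its place beside Tyrobp and Fcer1g in DKO is given for merged exons only. Other lengths were not tried. Of all genes tested, 62.1% had a lower level per length than Fcgr2b in control and 41.4% in DKO. For scale, Cd3e was at 294.2 CPM per kb in control and 259.7 in DKO.

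**Figure D2:**
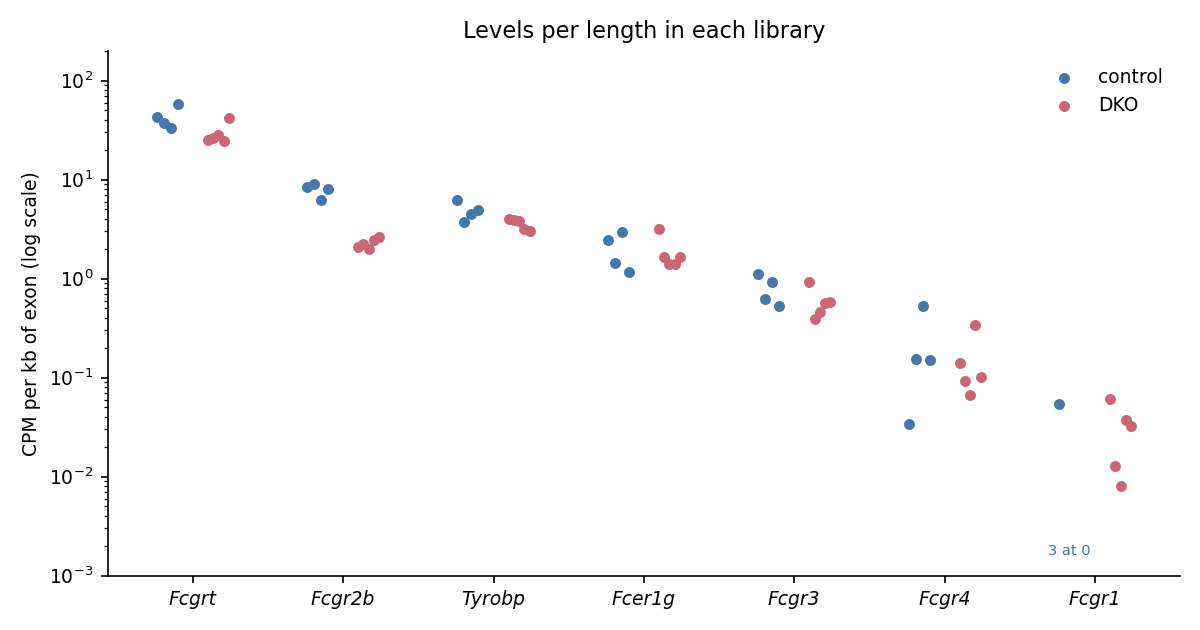
Levels per length of the 7 Fc receptor genes in CPM per kb of merged exon length on a log axis, with each library as a point (blue control, n = 4; red DKO, n = 5); the 3 controls without a count of Fcgr1 have no point and are noted as at 0. By merged exon length, Fcgr2b averages 7.88 CPM per kb in control and 2.27 in DKO, where it is below Tyrobp, while Fcgrt stays highest of the 7.

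The inhibitory receptor was the main Fcγ receptor transcript in every library of both groups. Fcgr2b made up 81.1 to 92.0% of the summed level per length of Fcgr2b, Fcgr3, Fcgr4 and Fcgr1 in control and 64.6 to 81.6% in DKO, ranges that met only between control 3 and DKO 2. Fcgr2b had 22.4 to 50.1 counts for each count of Fcgr3 in control and 7.40 to 18.8 in DKO, without overlap. This gap mainly restates the difference for which Fcgr2b was picked. DKO 1 had the lowest ratio, and the other DKO libraries were at 14.2 or above.

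Host macrophages and B cells carry Fcgr2b, so their markers were read in the same libraries. The macrophage marker Lyz2, which encodes lysozyme, was at 3.44, 1.46, 3.41 and 1.51 CPM in control and 13.6, 3.89, 4.96, 2.81 and 3.91 CPM in DKO. Lyz2 was not past the threshold in edgeR (log2 difference 1.27, SE 0.47, edgeR adjusted p = 0.206) and was higher past it in DESeq2 (DESeq2 adjusted p = 0.0476). Over all alternatives its adjusted p ran from 0.0476 to 0.418, and without DKO 1 its log2 difference was 0.69. In 4 of 5 DKO libraries Lyz2 lay above all controls, opposite to Fcgr2b. Csf1r, the receptor for macrophage colony-stimulating factor, was at 0.512 to 3.27 CPM in control and 0.840 to 5.63 CPM in DKO. Its level is uncertain, because reads that fall on overlapping genes are not counted. Counted for either strand and summed, which keeps such reads of either gene, Csf1r had 5.54 times as many counts over the 9 libraries. The complement gene C1qa was at 0.512 to 2.15 CPM and 0.761 to 1.93 CPM, and Cd14, the coreceptor for endotoxin, at 0.243 to 0.418 CPM and 0.184 to 0.533 CPM. Neither Csf1r, C1qa nor Cd14 passed the threshold (edgeR adjusted p = 0.804, 0.925 and 0.925), and DKO 1, highest of its group in Fcer1g and Fcgr3, was also highest there in Lyz2, Csf1r, C1qa and Cd14.

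Of 22 macrophage and monocyte genes, 18 were tested, and 2 fell in edgeR. They were Ctss, a lysosomal protease (81.7 to 51.1 CPM, log2 change -0.66, SE 0.10, edgeR adjusted p = 0.00734), and Cd68, a lysosomal membrane protein (29.3 to 16.7 CPM, -0.80, SE 0.14, edgeR adjusted p = 0.0138). DESeq2 called 4 of the list (Lyz2, Cd68, Itgam and Ctss) and limma-voom 3 (Cd68, Itgam and Ctss). Itgam is named after its value was seen. The list's tested genes had a median of 0.14, with 10 higher and 8 lower. Its summed level was 172.6 to 204.8 CPM in control and 120.6 to 141.4 CPM in DKO, lower in DKO as Fcgr2b was. Ctss, Cd68 and Itgam made up most of that sum. Without those 3, a choice made after their values were seen, it was 11.5 to 25.1 CPM in control and 11.0 to 42.3 CPM in DKO. The part of macrophage RNA in the Fcgr2b difference was not tested.

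Of the defining B cell markers, Ms4a1 was at 0 to 0.686 CPM in control and 0 to 0.296 CPM in DKO, and Pax5 at 0 in all 9 libraries. Cd79a, a part of the B cell receptor, was at 0.427 to 1.31 CPM in control and 0.605 to 1.07 CPM in DKO. Of 16 B cell genes, 4 averaged above 1 CPM, Ighm, Cd22, Igkc and Cd79b, named after their values were seen. Cd79b, the partner of Cd79a, was at 4.27 to 7.40 CPM in control and 5.08 to 6.47 CPM in DKO. Of the 16, 11 were tested and none passed the threshold in edgeR, 1 had an unadjusted p under 0.05, and DESeq2 called 0 and limma-voom 1 (Cr2). The list summed to 191.1 to 273.9 CPM in control and 200.3 to 219.2 CPM in DKO, and without Ighm, left out after its values were seen, to 16.8 to 18.6 CPM and 18.5 to 24.0 CPM. Because Fcgr2b was picked for its difference, its ratios to the markers mainly restate that difference and are no test. For each count of Cd79a there were 35.5 to 113.7 counts of Fcgr2b in control and 12.0 to 23.4 in DKO. For each count of Csf1r there were 11.0 to 94.8 in control and 2.13 to 16.9 in DKO, ratios that rest on the uncertain counts of Csf1r.

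**Figure D3:**
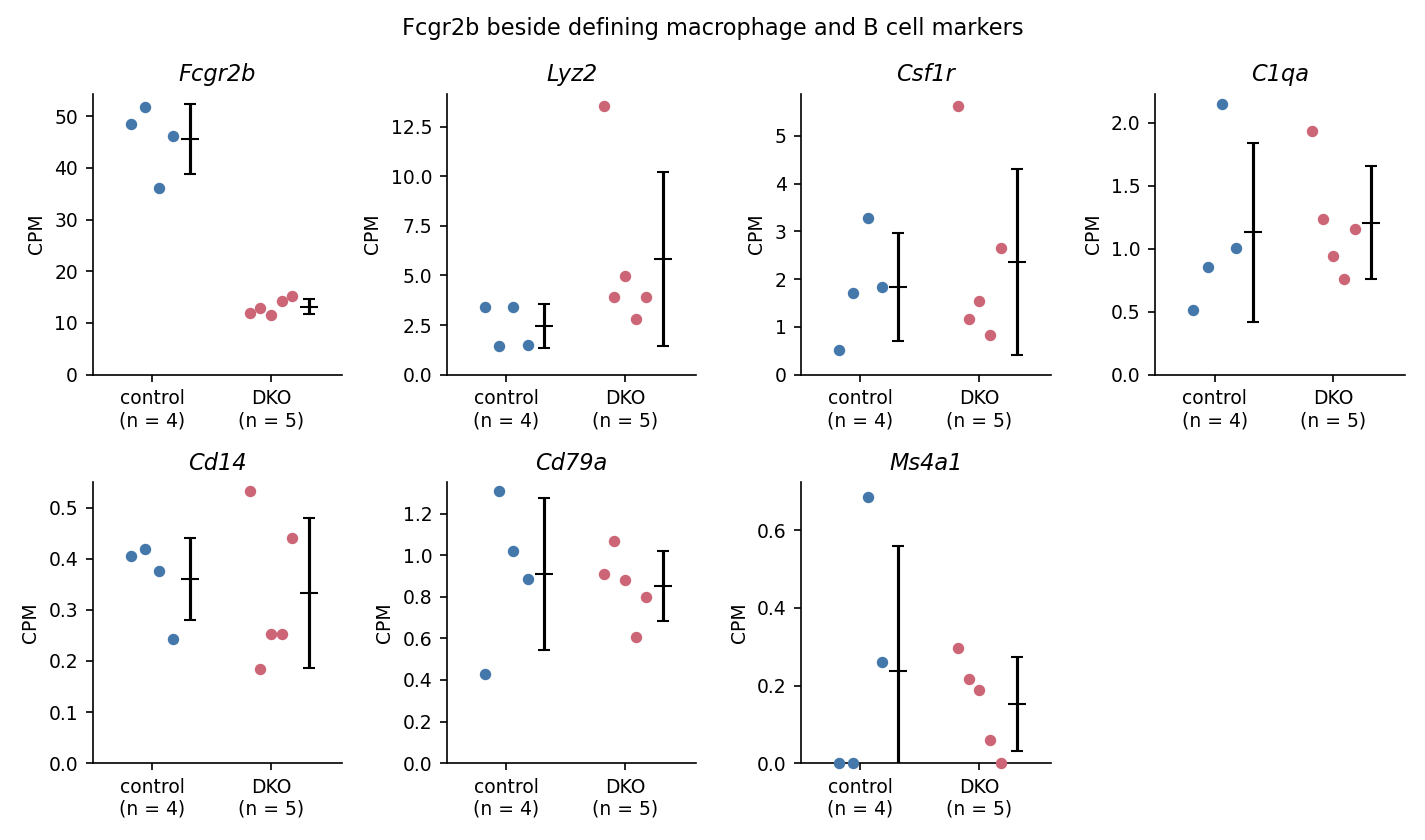
Fcgr2b beside defining markers of macrophages (Lyz2, Csf1r, C1qa, Cd14) and B cells (Cd79a, Ms4a1), in CPM on linear axes from 0; points are libraries and bars are the mean ± SD, cut off at 0 (control n = 4, DKO n = 5). Fcgr2b separates the groups, while every marker shown overlaps between them and stays at or below 5.63 CPM other than Lyz2, which reaches 13.6 CPM in DKO 1.

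The remaining marker lists gave the following. No neutrophil gene was tested and the list summed to 0.107 to 0.209 CPM in control and 0.0840 to 1.43 CPM in DKO, with S100a8 at 0 in all controls and at up to 0.336 CPM in DKO. The mast cell and basophil list summed to 1.44 to 2.46 CPM and 1.11 to 2.21 CPM, with Fcer1a at 0 in all DKO libraries. Natural killer genes summed to 311.8 to 325.1 CPM in control and 206.6 to 248.8 CPM in DKO, lower in DKO as Fcgr2b was. Of their 7 tested genes, Klre1 (log2 change -0.61, edgeR adjusted p = 0.00937) and Eomes (-0.48, edgeR adjusted p = 0.0497) fell, both of which effector CD8+ T cells also express. Ncr1, the defining natural killer marker, was at 0.256 CPM or less in every library, and the part of such cells in the Fcgr2b difference was not tested. Among 5 tested plasma cell genes Sdc1 rose, with no count in control and 52 in DKO (edgeR adjusted p = 0.0357), and among 12 T cell genes Cd8b1 fell (-0.40, edgeR adjusted p = 0.0428). DESeq2 called Irf4 among the plasma cell genes and gave no adjusted p for Sdc1, and limma-voom called both. Irf4, named after its value was seen, was at 11.5 to 19.2 CPM in control and 22.0 to 24.0 CPM in DKO (edgeR adjusted p = 0.0752). Klre1, Eomes and Cd8b1 were called by both tools, and limma-voom also called Lat among the T cell genes. Single libraries decided 3 of these calls. Those of Eomes and Cd8b1 were lost without any of controls 2 to 4 or any DKO library (edgeR adjusted p = 0.0543 to 0.142 and 0.0520 to 0.127). That of Sdc1 was lost without control 2, 3 or 4 (edgeR adjusted p = 0.0578 to 0.0821), and without DKO 2, 3, 4 or 5 it failed the filter on counts. In edgeR none of the tested dendritic cell, MHC class II, mast cell and basophil or erythroid and platelet genes passed. At an unadjusted p under 0.05 these lists had 2, 1, 0 and 0 genes, DESeq2 called 1, 0, 0 and 0, and limma-voom called 1, 0, 0 and 3. MHC class II genes summed to 17.7 to 25.9 CPM in control and 20.1 to 46.2 CPM in DKO. Of these 6 genes 4 were higher and 2 lower, with a median log2 difference of 0.81. Dendritic cell genes summed to 425.3 to 676.3 CPM in control and 443.5 to 522.8 CPM in DKO, and 5 of the 12 averaged above 1 CPM. Of their 7 tested genes 4 were higher and 3 lower, with a median of 0.096. The part of such cells in the Fcgr2b difference was not tested.

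The genes around Fcgr2b were read next. Within 500000 bases of its start the annotation holds 50 genes, of which 26 were tested, 23 of them other than the members. Of those 23, none rose and 3 fell in edgeR, where 1.51% of all genes tested fell. All 3 start within 63606 bases of the start of Fcgr2b. The 23 had a median log2 difference of -0.025, near that of all genes tested, with 10 higher and 13 lower.

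The nearest of these that does not overlap Fcgr2b was Gm10522, a long noncoding RNA on the opposite strand at chr1:170981944-170986466, whose start lies 5397 bases from that of Fcgr2b. It was at 13.1, 11.3, 13.2 and 15.7 CPM in control and at 2.94, 4.48, 4.70, 4.78 and 4.29 CPM in DKO, with no overlap. It fell by 1.64 on the log2 scale (SE 0.16, edgeR adjusted p = 5.18e-04). The ratio of Fcgr2b to Gm10522 counts was 2.74 to 4.56 in control and 2.46 to 4.07 in DKO, ranges that overlapped. The transcripts share no run longer than 11 bases on either strand.

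Gm38204, an antisense transcript that overlaps the 5′ end of Fcgr2b (chr1:170973373-170977746), was at 2.01, 1.99, 1.64 and 2.38 CPM in control. In DKO it was at 0.888, 0.702, 0.693, 0.664 and 0.631 CPM, and it fell by 1.47 (SE 0.21, edgeR adjusted p = 0.00469). The libraries do not keep strand, so reads of Fcgr2b and of Gm38204 in their overlap cannot be told apart, and its own value is uncertain. Summing the counts of both strand columns, which keeps the reads of such overlaps, gave Fcgr2b means of 45.6 CPM over the controls and 13.4 CPM over DKO.

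Fcrlb, a receptor-like gene of the Fc receptor family that stays inside the cell, begins 63606 bases from the start of Fcgr2b on the same strand. It was at 0.704, 0.506, 0.221 and 0.991 CPM in control and at 0.257, 0.0501, 0.0420, 0.0586 and 0.0631 CPM in DKO, where DKO 1 reached above control 3. It fell by 2.65 (SE 0.60, edgeR adjusted p = 0.0406), from 129 counts in control and 24 in DKO, and the call was lost without control 2, control 4 or any of DKO 2 to 5 (edgeR adjusted p = 0.0702 to 0.128). With single libraries left out its log2 difference was -3.44 to -2.29.

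The other tested genes of the window did not pass the threshold. Gm2962, which starts 50903 bases from Fcgr2b and so between it and Fcrlb, had a log2 difference of -0.19 (SE 0.32, edgeR adjusted p = 0.813). Dusp12 and Atf6, beyond Fcrlb, were at -0.052 and 0.079. Cfap126, a gene of cilia between Fcgr3 and Fcer1g, was at -0.84 (SE 0.38, edgeR adjusted p = 0.303), and Sdhc, a subunit of the succinate dehydrogenase complex, at -0.066. The others reported here, Tomm40l, B4galt3, Ppox, Usp21, Ufc1, Rpl27-ps1, Gm20045, Dedd, Nit1, Pfdn2, Arhgap30, Usf1, Tstd1 and F11r, ranged from -0.22 to 0.35.

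**Figure D4:**
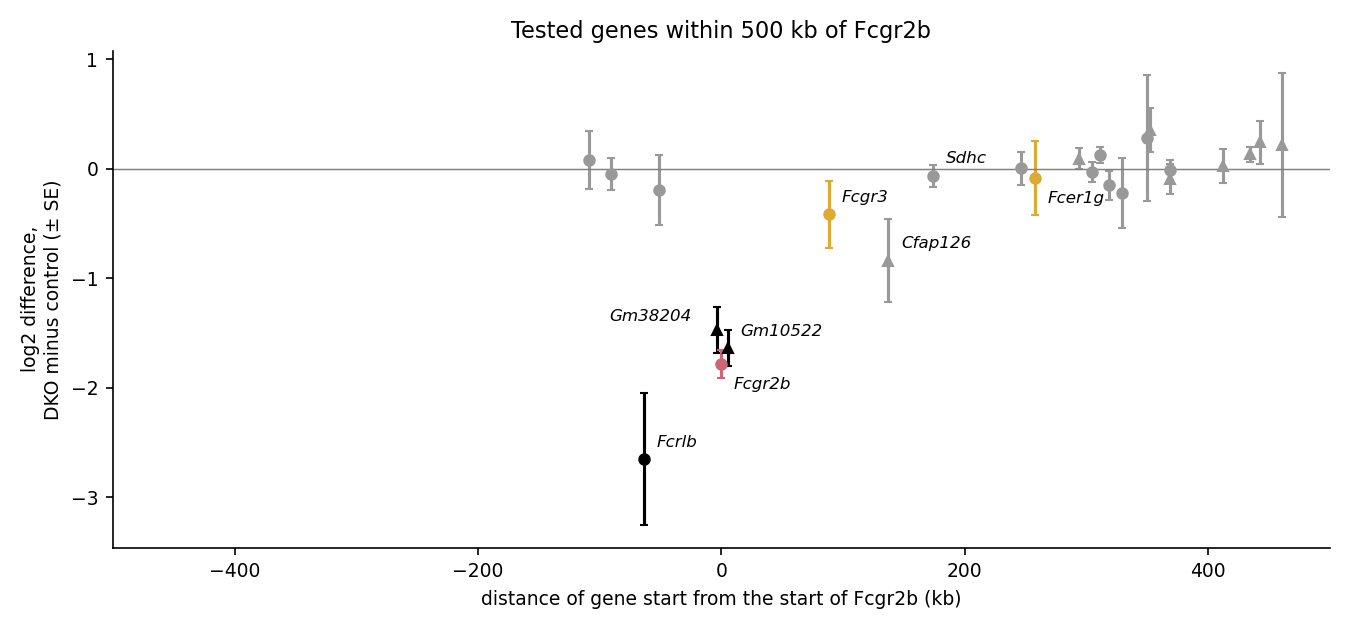
Log2 difference, DKO minus control, with its SE for tested genes within 500 kb of Fcgr2b, against the distance of each gene's start from that of Fcgr2b in kb (positive towards higher coordinates); circles are minus-strand and triangles plus-strand genes, red is Fcgr2b, gold the other members, black past the threshold and grey not past it. Fcgr2b, Gm10522 and Gm38204 sit together at -1.78, -1.64 and -1.47, Fcrlb lies at -2.65, and the remaining genes scatter around 0.

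Because a hairpin against Oxct1 was used in DKO, the transcripts of Oxct1 and Fcgr2b were searched for shared sequence. The longest run they share on the sense strand has 12 bases and lies in the last exons of both, outside the coding part.
Oxct1 (chr15:4154793-4154804, plus strand) and Fcgr2b (chr1:170959029-170959040, minus strand): atcactccagaa
Of 11530 tested genes with coding transcripts, 68.8% share a run of that length with Oxct1. A run of 19 bases is shared by 96 of them (0.833%), and Fcgr2b is not among these. Shorter runs were not counted, and runs between Oxct1 and Fcgr2b on opposite strands were not searched. The hairpin's own sequence was not analysed here, and whether it reaches Fcgr2b was not tested.

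The other genes of Fc receptor signalling were counted by lists set out for this work. Of 13 other Fc receptor genes 4 were tested and 1, Fcrlb, fell, with a median log2 difference of -0.42 over the 4. Limma-voom also called Fcrlb, DESeq2 called 0 and gave no adjusted p for Fcrlb, and Fcrlb did not pass the stricter filter on counts. Trim21, a receptor for antibody in the cytosol, was the only gene of this list to average above 1 CPM over the 9 libraries. It was at 90.7 ± 10.2 CPM over the controls (SD, n = 4) and 95.0 ± 1.88 CPM over DKO (SD, n = 5). Of the 7 other ITAM adaptors, the CD3 chains among them, all were tested and none passed in edgeR, with 6 lower, 3 at an unadjusted p under 0.05 and a median of -0.17. DESeq2 and limma-voom called 0 of these 7.

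Downstream of the activating receptors, none of 20 tested genes passed in edgeR (of 22), with 12 higher, 8 lower and a median of 0.097, and 1 had an unadjusted p under 0.05. DESeq2 called 0 and limma-voom 1, Lat, which is named after its value was seen. Syk, the kinase that ITAM motifs recruit in myeloid and B cells, was at 0.992 ± 0.596 CPM over the controls (SD, n = 4) and 1.35 ± 0.616 CPM over DKO (SD, n = 5; log2 difference 0.45, edgeR adjusted p = 0.737). Its T cell relative Zap70 was higher per length (95.2 against 0.106 CPM per kb in control), at 284.8 ± 30.5 CPM and 305.4 ± 14.5 CPM (log2 difference 0.11, edgeR adjusted p = 0.553). Lyn, a Src family kinase of myeloid and B cells that phosphorylates ITAM and ITIM motifs, was at 4.11 ± 0.681 CPM and 4.75 ± 0.967 CPM (0.22, edgeR adjusted p = 0.628).

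Downstream of FcγRIIB, none of the 13 genes passed in edgeR, with 10 higher, 3 lower and a median of 0.094, while 1 had an unadjusted p under 0.05 and DESeq2 and limma-voom called 0. Inpp5d, which encodes the SHIP1 phosphatase that FcγRIIB recruits, was at 278.4 ± 82.4 CPM over the controls (SD, n = 4) and 339.5 ± 23.3 CPM over DKO (SD, n = 5; log2 difference 0.29, edgeR adjusted p = 0.4995). Ptpn6, which encodes the tyrosine phosphatase SHP-1, was at 825.2 ± 17.4 CPM and 929.9 ± 69.3 CPM (0.18, edgeR adjusted p = 0.245). Per length, Inpp5d was above Fcgr2b itself and stood at 36.6 CPM per kb in control and 44.7 in DKO, against 7.88 and 2.27 for Fcgr2b.

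Other receptors with an ITIM numbered 32, of which 27 were tested and none passed in edgeR, with 17 higher, 10 lower, 7 at an unadjusted p under 0.05 and a median of 0.19. DESeq2 and limma-voom each called 1, Klrg1, named after its value was seen, an inhibitory receptor of effector T cells at 672.1 ± 70.5 CPM over the controls (SD, n = 4) and 543.5 ± 56.4 CPM over DKO (SD, n = 5; log2 difference -0.29, edgeR adjusted p = 0.125). Of 29 receptors that pair with FcRγ or DAP12, 9 were tested and none passed in edgeR, DESeq2 or limma-voom, with 3 higher, 6 lower, 2 at an unadjusted p under 0.05 and a median of -0.21. Whether Fcgr2b differed from these lists was not tested.

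**Figure D5:**
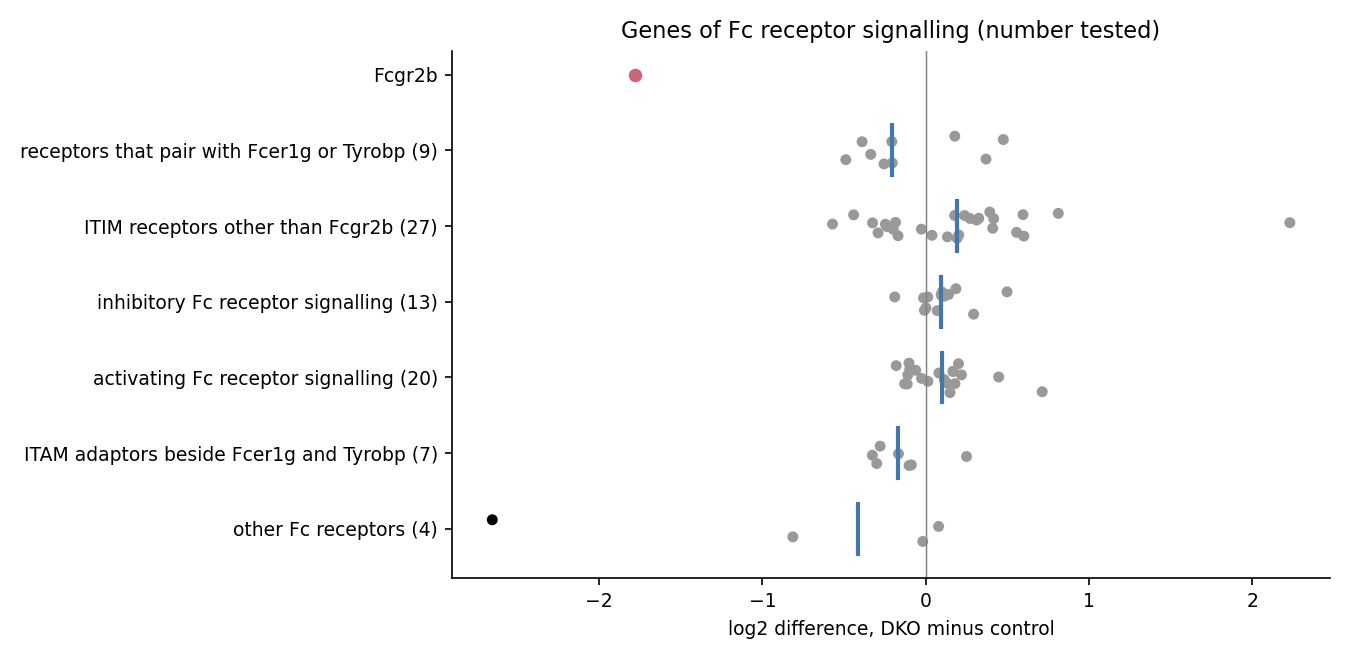
Log2 difference, DKO minus control, of every tested gene in 6 lists of Fc receptor signalling, with Fcgr2b on top; each point is a gene, the blue bar is the list's median, black is past the threshold (Fcrlb) and the number tested is in brackets. Fcgr2b lies at -1.78, while the list medians run from -0.42 to 0.19.

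The genes whose log2 CPM followed that of Fcgr2b most closely over the 9 libraries were Wfikkn2 (Pearson's r 0.985), Oxct1 (0.985), Agpat2 (0.983), Arf1 (0.982) and I830127L07Rik (0.979). All 5 fell in DKO, so these values describe the shared difference between the groups. Wfikkn2, a secreted protease inhibitor, went from 6.47 ± 0.758 CPM over the controls (SD, n = 4) to 1.97 ± 0.180 CPM over DKO (SD, n = 5), and I830127L07Rik, a transcribed pseudogene, from 340.4 ± 50.7 CPM to 114.7 ± 18.6 CPM. Arf1, a GTPase of vesicle traffic, went from 558.0 ± 28.9 CPM to 341.9 ± 13.3 CPM, and Agpat2, an enzyme of phospholipid synthesis, from 28.9 ± 2.08 CPM to 18.9 ± 1.29 CPM. Among the members, r with Fcgr2b was 0.734 for Fcgrt, 0.628 for Tyrobp, 0.405 for Fcgr3 and -0.039 for Fcer1g.

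After each group's mean was subtracted, the closest genes were Hist1h2bg (r 0.950), Rnf219 (0.929), Wdr59 (0.924), Abhd5 (0.913) and A630035G10Rik (0.912). None of these 5 passed the threshold between the groups, and the list shares no gene with the one before. Within the groups, r with Fcgr2b was 0.511 for Fcgrt, -0.27 for Fcgr3, -0.39 for Tyrobp and -0.56 for Fcer1g. These are descriptions over 9 libraries that also share depth and processing. The 5 closest genes were picked as the highest of all genes tested, so high r values came with the choice and were not tested against chance.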

How the data were processed

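PolyA RNA of 9 samples (4 control, 5 DKO) was turned into libraries with Takara SMART-Seq v4 and Nextera Flex kits, per the labels' protocols. Trim Galore 0.6.0, STAR 2.7.8a and mm10 were used, per the submitters' processing notes. Their annotation is not given in the sources used here. Raw counts per gene were deposited for each library, once ignoring strand and once for either strand. Either strand column held 49.9 to 50.1% of the stranded counts, so the counts that ignore strand were used. In this layout reads with several mapping places are not counted, which lowers genes with near-identical copies. Library sizes (45205993 to 59853080) leave out unmapped reads (10.3 to 16.7%), reads with several places (5.80 to 6.79%), reads outside features (4.01 to 5.20%) and reads of overlapping features (4.97 to 5.31%). Of 55471 identifiers, 55230 had a GENCODE M21 symbol when versions were ignored.

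Genes kept by filterByExpr (minimum count 10, minimum total 15) were fitted by the robust quasi-likelihood method of edgeR 4.0.16 after TMM scaling (R 4.3.3), with Benjamini-Hochberg adjustment over 14918 genes at 0.05. CPM use raw totals, and log2 CPM a prior count of 2. Counts simulated for DKO against control from these libraries (14918 genes, 200 changed) gave back 56% of 2-fold and 87% of 4-fold changes, with 3.38% false calls. Chi-square values of counts over genes found no duplicated library. Alternatives were DESeq2 size factors, DESeq2 1.42.0, limma-voom 3.58.1, no filter, at least 1 CPM in 4 libraries, both strand columns summed, a replicate block, sva 3.50.0 with 1 surrogate variable, leaving out each library, and leaving out control replicates 1 and 3. Marker sums without their top genes were chosen after seeing the data. Python 3.11.15, pandas 2.3.3, numpy 2.4.6 and matplotlib 3.10.9 were used. Members, lists and alternatives were chosen with earlier results of these data known. Named genes were the targeted genes, the members, list genes past the threshold, fixed markers and signalling genes, tested genes within 500000 bases of Fcgr2b, and the 5 closest by correlation with Fcgr2b, over all libraries and within groups. Some genes that this rule names, or that the lists hold, are not reported here.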

Additional observations from a re-analysis of the deposited data

Results flagged for a closer look

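Of 38 groups of 4 or 5 values checked, 5 held a library far from the others by Dixon's test, where chance gives about 5% of groups. Among the members these were Fcgr4 in DKO 4 at 0.430 CPM (others 0.0840 to 0.178), Fcgr1 in control 4 at 0.139 CPM (others at 0), Fcer1g in DKO 1 at 2.78 CPM (others 1.23 to 1.45) and Fcgrt in DKO 5 at 88.2 CPM (others 51.8 to 58.7). DKO 1 was also highest of its group in Lyz2, and the part of myeloid RNA in its Fcer1g level was not tested. The summed MHC class II level was lowest in control 2, at 17.7 CPM against 25.6 to 25.9 CPM in the other controls.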

How the results depend on the processing

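The log2 difference of Fcgr2b ranged from -1.92 to -1.71 over 18 alternatives, Oxct1 and Bdh1 stayed past the threshold in all of them, and of the other members only Fcer1g moved beyond its spread, to 0.50 without control replicates 1 and 3. The sign of Fcer1g also turned with limma-voom (0.27) and ranged over -0.37 to 0.17 without single libraries. The count of all genes past the threshold, 422, was 1059 with DESeq2, 996 with limma-voom and 1148 with 1 surrogate variable. Leaving out single libraries gave 179 to 749 (749 without control 1, 187 without control 4, and 179, 280, 180, 221 and 228 without DKO 1 to 5), and the cause was not tested. The 6 signalling lists together held 1 gene past the threshold, 3 with limma-voom, 0 with the stricter filter, 4 with the surrogate variable and 0 to 2 without single libraries. Replicate numbers did not pair the samples: deviations of same-numbered libraries correlated at -0.047, -0.0090, 0.012 and -0.12. With the replicate block, where DKO 5 drops out, 67 of all genes, 0 genes of the signalling lists, 1 of the macrophage list (Cd68) and 1 near Fcgr2b passed, and Ctss was at an edgeR adjusted p of 0.0922. Signs turned as follows, in log2, for genes other than the members that passed in none of these: with the block, Csf1r -0.042, Ms4a1 0.53, Dusp12 0.0054 and Tomm40l -0.017; with limma-voom, Ms4a1 1.58, Atf6 -0.17, Dusp12 0.023, Sdhc 1.9e-04, Tomm40l -0.042, Rpl27-ps1 0.18, Pfdn2 0.080 and Arhgap30 -0.074; with the surrogate variable, C1qa -0.034, Ms4a1 0.072, Atf6 -0.048, Dusp12 0.037, Sdhc 0.017, Rpl27-ps1 0.017, Nit1 0.0028, Pfdn2 0.045 and Arhgap30 -0.080. Without control replicates 1 and 3 the values were Ms4a1 0.21, Atf6 -0.25, Tomm40l -0.17, Rpl27-ps1 0.085, Pfdn2 0.051 and Arhgap30 -0.12. The stricter filter gave Tomm40l -0.010 and the strand sum Dedd -0.18. Without single libraries the ranges were Arhgap30 -0.15 to 0.11, Atf6 -0.20 to 0.22, C1qa -0.15 to 0.61, Cd14 -0.34 to 0.049, Cd79a -0.34 to 0.15, Csf1r -0.24 to 0.79, Dusp12 -0.13 to 0.052, F11r -0.18 to 1.39, Gm20045 -0.017 to 1.15, Ms4a1 -1.02 to 0.76, Nit1 -0.065 to 0.022, Pfdn2 -0.17 to 0.088, Ppox -0.077 to 0.016, Rpl27-ps1 -0.38 to 0.090, Sdhc -0.13 to 0.033, Tomm40l -0.090 to 0.094 and Ufc1 -0.22 to 0.017. No log2 difference is given for Fcgr4 or Fcgr1 in any setting, also not without the filter, because their counts were low.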
